A study of Mus musculus with 18 samples.

Results

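The comparison described here is the tissue by genotype interaction of Stat3: the effect of deleting Stat3 in intestinal tumours minus the effect of deleting it in normal intestinal epithelial cells of the mouse. Its members were taken from the sample titles, and they were 18 of the 18 arrays of the series, in 6 groups of 3. The groups were epithelial cells labelled IEC Stat3fl/fl (the controls, replicates 1 to 3) and IEC Stat3-/- (replicates 4 to 6), male tumours labelled Stat3fl/fl (7 to 9) and Stat3-/- (10 to 12), and female tumours labelled Stat3fl/fl (13 to 15) and Stat3-/- (16 to 18). All mice carried floxed Stat3 alleles. In the deleted mice a Villin promoter drove Cre recombinase, so the gene was removed from the intestinal epithelium and not from the stroma, vessels or immune cells that a tumour piece also holds. The tumour mice carried the APCmin mutation, which activates WNT signalling, per both the sample labels and the design text. The sample labels, those of the epithelial cells included, carry a single description, which names APCmin mice and colorectal tumours induced with azoxymethane and dextran sulfate. It thus does not settle the Apc genotype of the mice behind the epithelial cells, and the labels give neither the sex and age of those mice nor the age of the tumour mice. In contrast to that description, the design text describes tumours of APCmin mice found mostly in the small bowel, and whether the tumours were also chemically induced, and which segment each came from, was thus unsettled. The study concerned the role of Stat3 in intestinal tumour growth, and the interaction asks which genes depend on it in tumours and normal epithelium to unequal extents.

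STAT3 is a transcription factor that cytokines of the IL-6, IL-22 and IL-10 families switch on through receptor-bound Janus kinases. In the gut epithelium it is known for driving antimicrobial lectins, acute-phase proteins and repair, and its activity is held in check by SOCS proteins. Interferons signal through a related route, which induces antiviral and antigen-presenting genes.

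Expression is given as log2 values, where 1 unit is a doubling, and an effect is the deleted minus the control group. Each effect was tested with limma over 17316 named genes, with Benjamini-Hochberg adjusted p under 0.05 as the threshold. The tumour effect is the mean of the male and female effects. The array medians lay between 5.88 and 6.07. Deletion of Stat3 was visible in both tissues: Stat3 read 9.83, 9.74 and 9.91 in control epithelial cells and 7.93, 7.95 and 7.73 in deleted ones, against 10.03 to 10.35 in the 6 control tumours and 7.74 to 8.46 in the 6 deleted tumours. The fall was 1.96 ± 0.15 (SE) in epithelial cells and 1.98 ± 0.11 in tumours, and the difference between them, -0.02 ± 0.19, had a 95% confidence interval of -0.42 to 0.38. Whether the Stat3 probes lie inside the deleted exons was not stated. The mean level of 12 epithelial identity genes lay between 10.61 and 11.45 on every array. Fibroblast and matrix genes averaged 6.36 to 6.77 in epithelial cells and 8.86 to 10.40 in tumours. All 6 epithelial arrays read like the male tumours for sex-linked genes, so the male tumours are the sex-matched side of the comparison. Control tumours 9 and 15 stood apart from the other control tumours, with a mean of 8.10 and 7.74 over 17 absorptive enterocyte genes against 10.01 to 10.70. They also had the highest means of colon genes, 7.90 and 7.89, against 7.26 or less in every other tumour. Deleted tumour 18 was low for the enterocyte genes as well, at 9.38 against 10.02 to 11.04 in the other deleted tumours. Leaving out replicates 9 and 15 thus removed arrays low for enterocyte genes from the control side only. Interactions and list medians of at least 0.3 in size that moved by over 1.5 times without replicates 9 and 15 are given both ways.

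The interaction passed for 2 genes, 0.0116% of those tested. Lrg1, which encodes a secreted leucine-rich glycoprotein of the acute phase, had a tumour effect that was lower than its epithelial effect, by -3.14 (1 gene lower, 0.00578%). H2-Eb2, a beta chain gene of the MHC class II family, was the other, with a tumour effect 2.01 higher than the epithelial effect (1 gene higher, 0.00578%). At an unadjusted p under 0.05 there were 1624 genes, 727 with a higher and 897 with a lower tumour effect. Over all 17316 tested genes 9777 interactions were below 0 and 7539 above, which is the background for the list counts given below. The deletion itself passed for 123 genes in tumours (0.71%), 50 higher (0.289%) and 73 lower (0.422%), and for 4 genes in epithelial cells (0.0231%), all lower. For scale, 65.7% of genes differed between control tumours and control epithelial cells, 30.4% higher and 35.3% lower in tumours. The spread of the interaction bounds what could pass: its median standard error over genes was 0.23, the median 95% interval reached 0.50 to either side, and the smallest value that passed was 2.01. A gene that passed in tumours and not in epithelial cells is therefore not shown to differ between them, and the interaction is the test of that.

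The 250 bases before the gene starts of both genes are printed here with those of 3 reference points: Reg3b, which fell in both tissues, H2-Eb1, the expressed paralog of H2-Eb2, and Ifit3, an interferon-induced gene that rose in tumours. They are from RefSeq, build GRCm38.p6, and read 5′ to 3′ on the strand of the gene. Lrg1 lies at chr17:56121947-56122196 on the minus strand, Reg3b at chr6:78370635-78370884 on the plus strand, H2-Eb2 at chr17:34325425-34325674 on the plus strand, H2-Eb1 at chr17:34305617-34305866 on the plus strand and Ifit3 at chr19:34583279-34583528 on the plus strand. Capitals mark a match to the STAT motif TTCNNNGAA in Lrg1 and Reg3b, to the class II Y box CTGATTGG in H2-Eb2 and H2-Eb1, and in Ifit3 to the interferon response motif, which is GAAA, any 2 bases and GAAA again, each searched on both strands.
Lrg1: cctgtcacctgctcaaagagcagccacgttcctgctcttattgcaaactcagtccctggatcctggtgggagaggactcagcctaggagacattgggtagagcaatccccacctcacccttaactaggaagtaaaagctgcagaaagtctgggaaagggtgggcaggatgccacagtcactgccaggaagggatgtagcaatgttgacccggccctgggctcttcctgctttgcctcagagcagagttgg
Reg3b: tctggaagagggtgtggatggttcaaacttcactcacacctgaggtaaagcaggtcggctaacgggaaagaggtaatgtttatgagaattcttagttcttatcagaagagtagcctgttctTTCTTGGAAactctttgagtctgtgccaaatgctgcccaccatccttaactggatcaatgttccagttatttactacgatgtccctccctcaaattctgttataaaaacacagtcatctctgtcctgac
H2-Eb2: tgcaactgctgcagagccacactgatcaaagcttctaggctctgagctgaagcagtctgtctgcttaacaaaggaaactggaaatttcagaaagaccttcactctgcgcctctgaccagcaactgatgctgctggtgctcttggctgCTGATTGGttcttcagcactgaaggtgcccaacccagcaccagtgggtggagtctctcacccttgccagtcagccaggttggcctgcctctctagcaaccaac
H2-Eb1: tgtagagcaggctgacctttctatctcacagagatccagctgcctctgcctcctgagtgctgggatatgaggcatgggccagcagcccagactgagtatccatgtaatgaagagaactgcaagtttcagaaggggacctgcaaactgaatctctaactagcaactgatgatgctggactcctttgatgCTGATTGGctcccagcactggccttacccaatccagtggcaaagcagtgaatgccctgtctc
Ifit3: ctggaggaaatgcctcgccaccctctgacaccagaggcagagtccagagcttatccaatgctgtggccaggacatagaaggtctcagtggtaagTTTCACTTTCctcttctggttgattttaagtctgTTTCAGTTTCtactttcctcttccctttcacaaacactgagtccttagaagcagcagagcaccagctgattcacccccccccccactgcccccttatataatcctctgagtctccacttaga

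The Lrg1 window holds no match to the STAT motif, and the Reg3b window holds 1, at position -129 from the gene start. The windows of Reg3g, Tifa and Stat3, which read lower after deletion in both tissues, and of Serpina3n and Wfdc18 hold none. H2-Eb2 and H2-Eb1 each hold the Y box, at -103 and -62. Ifit3 holds a pair of interferon motifs, at -156 and -122, whereas the windows of Irf7, Oasl2 and Ube2l6, which also rose in tumours, hold none. The 3 reference windows printed are thus ones with a match. Of all 32851 promoter windows in the table, 7.02% held the STAT motif, 3.83% the Y box and 2.98% the interferon motif. Among the genes with a window here, the STAT motif was in 5 of 55 that fell in tumours (9.09%) and in 7.38% of the tested genes, and the interferon motif was in 9 of 36 that rose (25%) and in 3.16% of the tested genes. A match is a run of letters and not a shown binding site, and some of the 9, such as the neighbours Ifit3 and Ifit3b, are near-identical copies.

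Lrg1 read 5.33, 5.68 and 5.57 in control epithelial cells and 5.41, 5.53 and 5.69 in deleted ones. It read 9.65, 9.25 and 8.72 in control male tumours and 6.24, 6.27 and 6.46 in deleted male tumours, and 9.67, 9.79 and 9.04 against 5.93, 5.80 and 6.64 in the females. The control and deleted tumours did not overlap in either sex, whereas the epithelial groups overlapped fully, and the deleted tumours ended just above the epithelial level. The tumour effect was -3.13 ± 0.18 (8.75-fold lower), the epithelial effect 0.02 ± 0.25, and the interaction -3.14 ± 0.31 with a 95% interval of -3.80 to -2.49 (limma, adjusted p = 0.000288). Each sex gave it against the same epithelial arrays, at -2.90 in males (adjusted p = 0.00652) and -3.39 in females (adjusted p = 0.000748). It passed with each of the 18 arrays left out in turn. Lrg1 in control epithelial cells stood 0.99 above the 25th percentile of those arrays, so a fall of the tumour size could not have been read there.

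**Figure D1:**
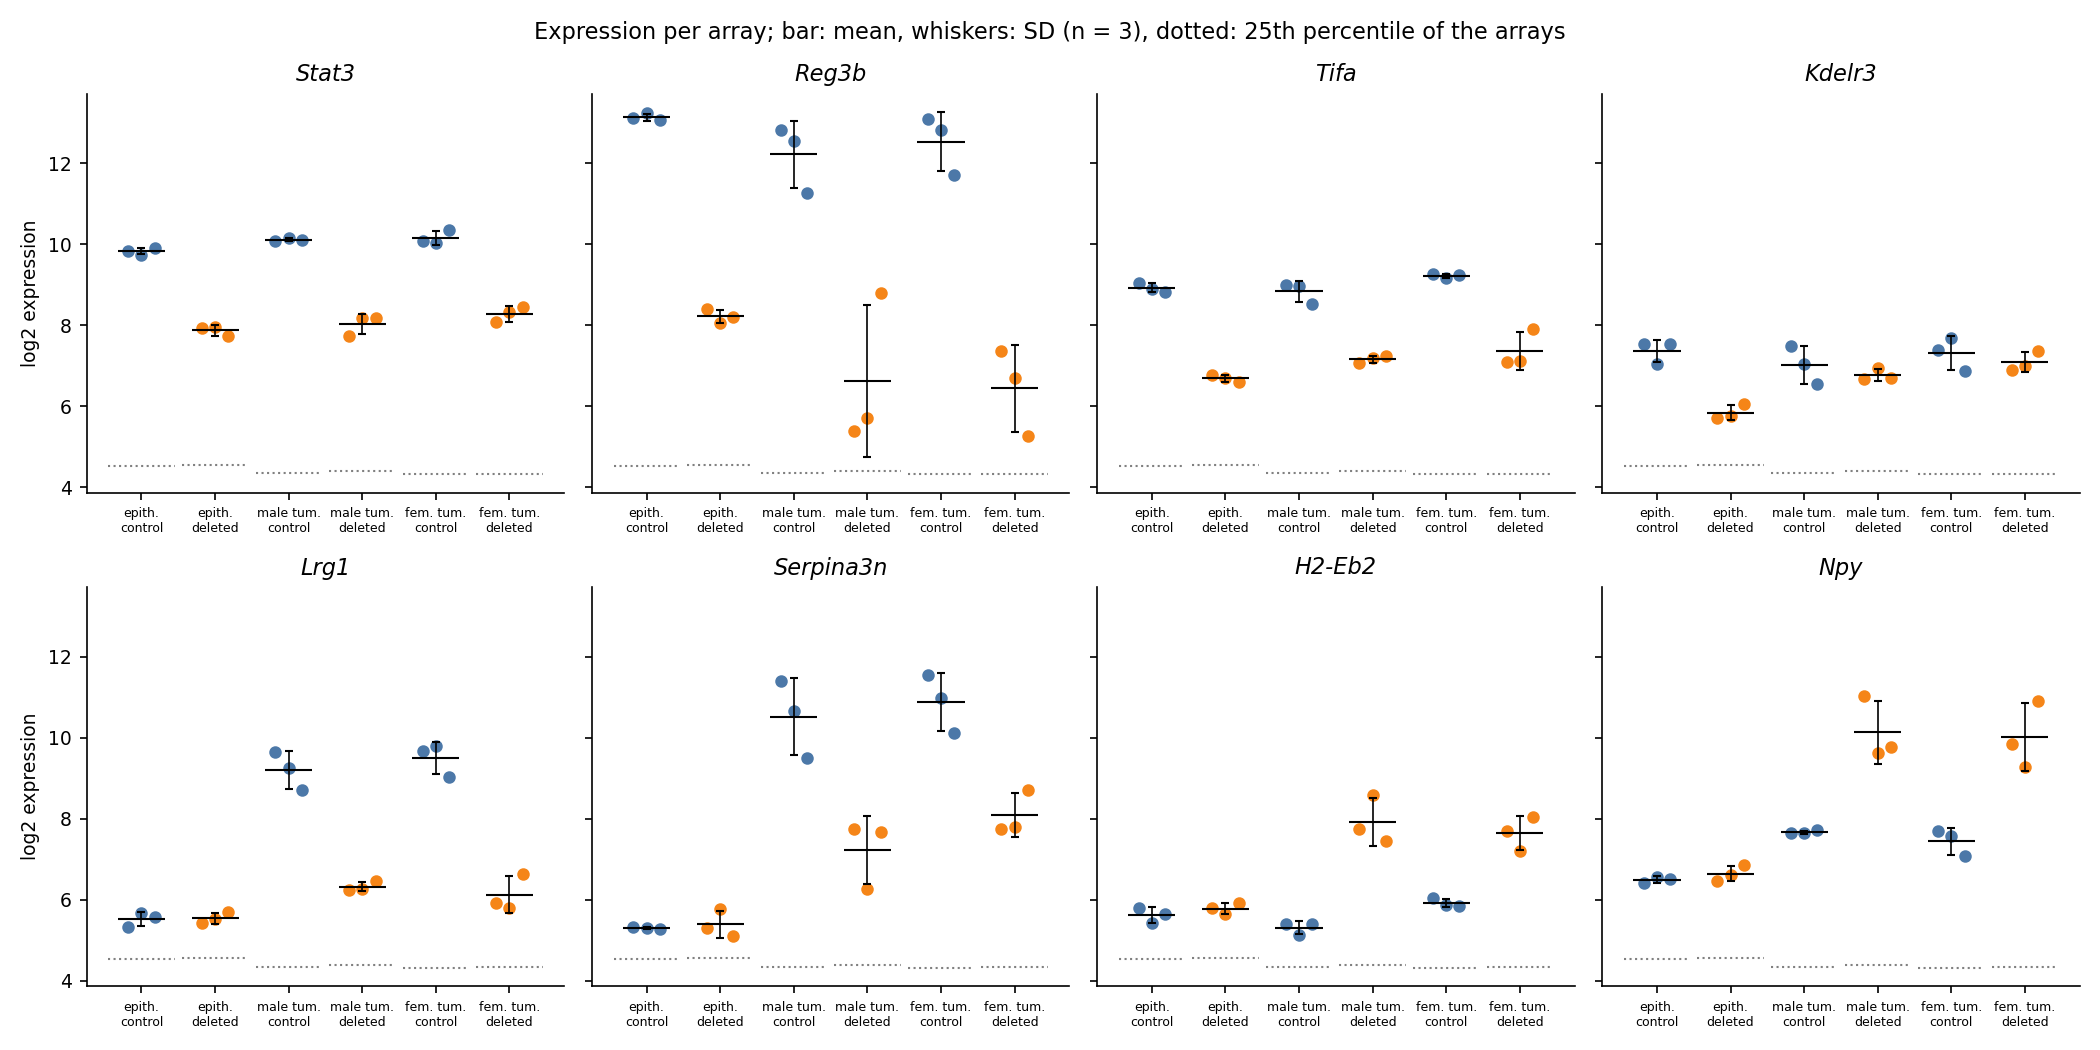
Log2 expression of 8 genes on each of the 18 arrays by group (epith., epithelial cells; tum., tumours; fem., female; blue, control; orange, Stat3-deleted), with the group mean and SD (n = 3) and, dotted, the mean 25th percentile of the group's arrays. Stat3, Reg3b and Tifa drop in both tissues, Lrg1 and Serpina3n drop in tumours from a level that epithelial cells do not have, Kdelr3 drops in epithelial cells, and H2-Eb2 and Npy are higher in deleted tumours.

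H2-Eb2 read 5.80, 5.42 and 5.64 in control epithelial cells and 5.79, 5.64 and 5.92 in deleted ones. In male tumours it read 5.40, 5.14 and 5.40 in controls and 7.75, 8.58 and 7.44 after deletion, and in female tumours 6.04, 5.88 and 5.85 against 7.70, 7.20 and 8.05. All 6 deleted tumours lay above all 12 other arrays. The tumour effect was 2.17 ± 0.17 (4.49-fold higher), the epithelial effect 0.16 ± 0.24 and the interaction 2.01 ± 0.30, with a 95% interval of 1.37 to 2.64 (limma, adjusted p = 0.0402). The size of the interaction ranged from 1.84 to 2.13 with 1 array left out, but the adjusted p from 0.00882 to 0.232, and it passed only without replicate 9, 11, 12, 17 or 18. With male tumours alone it was 2.45 (adjusted p = 0.0202) and with female tumours alone 1.56 (adjusted p = 0.423). H2-Eb1 is a close paralog, and cross-hybridisation between the probe sets was not tested.

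None of the other class II genes passed in the interaction. Among 15 tested genes of antigen presentation, H2-Eb2 alone passed, all 15 interactions were above 0 and their median was 0.41, against -0.05 over all tested genes. In tumours 5 of the 15 rose (H2-Eb2, Ciita, H2-Aa, Tap2 and Psmb9), and in epithelial cells 0 passed, with a median effect of 0.35. The 15 had a median effect of 1.25 in male and 0.29 in female tumours, so only the male value exceeded the epithelial one. Ciita, the master regulator of class II genes, read 6.73, 6.55 and 6.34 in control and 7.05, 7.06 and 6.86 in deleted epithelial cells. Those groups did not overlap, but the epithelial effect of 0.45 ± 0.21 did not pass (limma, adjusted p = 0.722). In tumours Ciita rose by 1.02, and its interaction was 0.57 ± 0.25 (adjusted p = 0.514). H2-Eb1 gave 0.60 in epithelial cells, 0.88 in tumours and an interaction of 0.28 ± 0.38, and H2-Ab1 gave 0.26, 0.79 and 0.53 ± 0.38. Both were far above the floor in every group. Replicate 8, a control male tumour, had the lowest list mean (8.25, against 8.89 to 9.93 in the other 5 control tumours).

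The 73 genes that fell in tumours were separated by whether epithelial cells could have shown a fall. A gene's room to fall was its mean in the control arrays of a tissue minus the mean 25th percentile of those arrays, 4.53 in epithelial cells and 4.33 in tumours. For scale, RNA that should be absent read 3.81 to 4.46 for Xist on the 12 arrays with male values and 2.74 to 4.04 for Eif2s3y, Kdm5d and Uty on the 6 female tumours. Genes with less than 1 unit of room were counted as too dim to fall, and genes with more than that but less than the size of the tumour fall as limited. Of the 73, 15 were too dim in epithelial cells, 3 were limited and 55 had room. Over all tested genes 21.5% were too dim in epithelial cells, 21% in tumours and 16.3% in both. Genes that fell in tumours had to be measurable there, so the shares are not compared further.

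The 15 genes too dim in epithelial cells, named by their class after their values were seen, were Lrg1, Serpina3n, Ly6g, Ptprz1, Gnal, Retnlb, Padi4, Fetub, Npy2r, Hamp, Pkd2l1, Trim10, Pcdhb5, Lama2 and Nexmif. In epithelial cells 0 of the 15 passed, and 8 read below 0, with Retnlb lowest at -0.60. For the 15, not passing in epithelial cells says nothing about their dependence on Stat3 there. Hamp, Pkd2l1, Trim10, Pcdhb5 and Nexmif had less than 1 unit of room in control tumours as well, so their tumour falls, of 0.56 to 0.81, took place next to the floor. Just inside the limit lay Lrg1 (room 0.99) and Lama2 (0.95), and just outside it Ffar4 (1.14) and Dhrs9 (1.17). With the array median as the floor 42 of the 73 were too dim, and with 2 units of room 33 were.

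**Figure D2:**
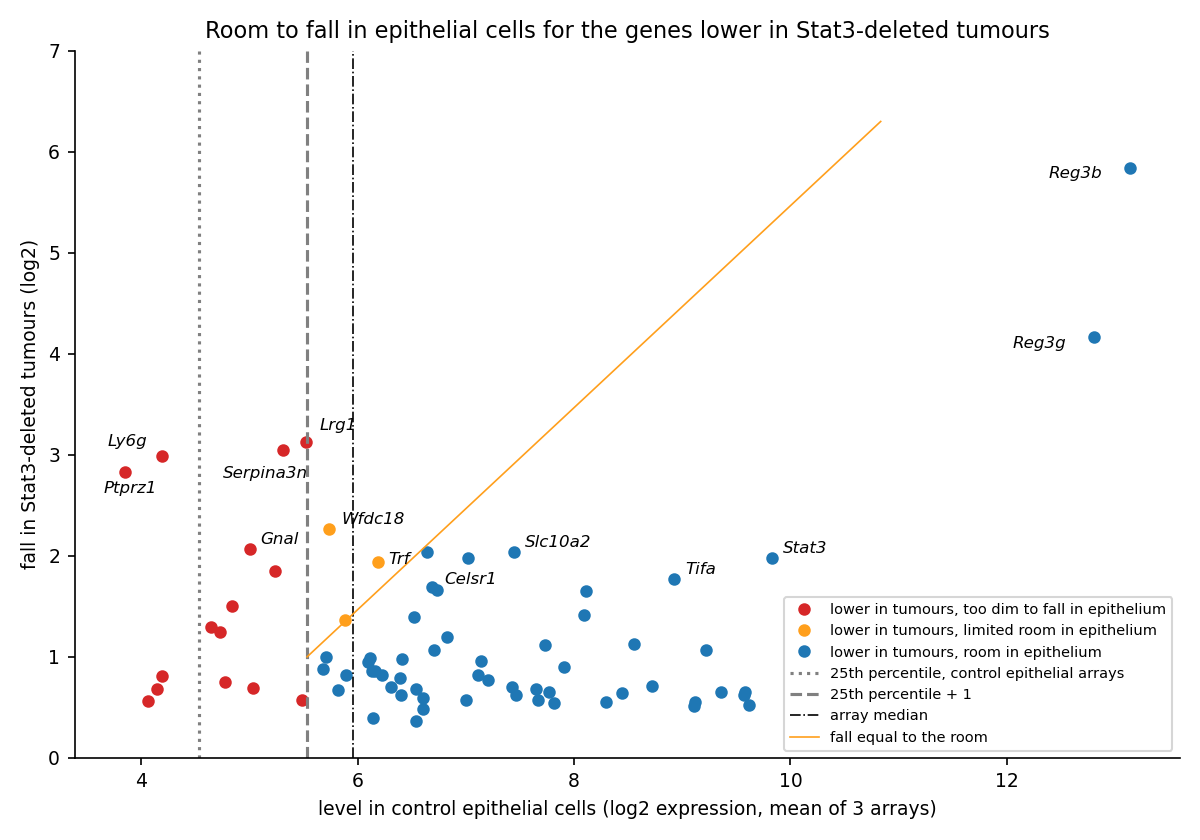
The 73 genes that fell in Stat3-deleted tumours, by their level in control epithelial cells (log2, mean of 3 arrays) and the size of the tumour fall (log2). The 15 red genes lie left of the 25th percentile plus 1, the 3 orange genes lie above the line where the fall equals the room, and the 55 blue genes had room to fall in epithelial cells.

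Serpina3n, a secreted protease inhibitor of the acute phase, had a tumour fall near that of Lrg1 and a wider spread. It read 5.34, 5.30 and 5.28 in control epithelial cells and 5.30, 5.76 and 5.11 after deletion. In male tumours it read 11.39, 10.66 and 9.51 against 7.75, 6.27 and 7.67, and in female tumours 11.54, 10.98 and 10.13 against 7.75, 7.80 and 8.71. The tumour groups did not overlap and the epithelial groups did. The interaction was -3.13 ± 0.57 (adjusted p = 0.123), with an adjusted p of 0.0259 to 0.445 as single arrays were left out, and it passed without replicate 9 or without 18. Members of the Serpina3 family are similar in sequence, and how far the probes separate them was not tested.

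Npy2r, a receptor of neuropeptide Y, came nearest to passing, at -1.58 ± 0.25 (adjusted p = 0.0514), and passed without replicate 9, 13 or 18. It read 4.96 to 6.03 in control tumours, 3.88 to 4.48 in deleted tumours and 4.54 to 5.30 in epithelial cells. The deleted tumours thus read at the level of absent RNA, and the epithelial cells little above it. Gnal, a G protein alpha subunit gene, read 6.17 to 7.71 in control tumours, 4.63 to 5.04 in deleted tumours and 4.81 to 5.20 in epithelial cells, with an interaction of -2.06 ± 0.36 (adjusted p = 0.123). It passed without replicate 8 or without 14. Ly6g, a neutrophil surface protein gene, spread over 6.86 to 9.58 in control tumours and 4.46 to 6.69 in deleted ones, and read 3.95 to 4.86 in epithelial cells. Its interaction of -3.28 ± 0.74 did not pass (adjusted p = 0.323). It passed without replicate 7. The 13 neutrophil genes as a list had a median interaction of -0.13 and a median tumour effect of -0.06, and Ly6g was the 1 of them that fell in tumours. Ptprz1, a receptor tyrosine phosphatase gene, was highest in control tumours 9 and 15, at 8.92 and 8.60 against 5.12 to 6.26 in the other 4. Its interaction was -2.76 (adjusted p = 0.474), and -1.79 without those 2 arrays.

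Wfdc18 and Trf, with Gsdma, had limited room. Wfdc18, a gene of the WAP-domain protease inhibitors, read 10.80 to 11.58 in control tumours, 8.42 to 9.64 in deleted tumours, 5.53 to 5.98 in control epithelial cells and 5.23 to 5.52 in deleted ones. The deleted epithelial cells all lay below the controls, but the difference was small, at -0.32 ± 0.28. The interaction was -1.95 ± 0.35 (adjusted p = 0.123) and passed without replicate 18. Trf, which encodes the iron carrier transferrin, fell by 1.94 in tumours, gave -0.09 in epithelial cells and had an interaction of -1.85 ± 0.43 (adjusted p = 0.323).

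The acute phase list held 13 tested genes, of which 10 were too dim in epithelial cells and 5 in both tissues. Lrg1 was the 1 that passed in the interaction, and Lrg1, Serpina3n and Trf fell in tumours. Their median effect was 0.10 in epithelial cells and -0.63 in tumours, and the median interaction was -0.72, or -0.31 without replicates 9 and 15. The array means of the list were 5.21 to 5.24 in control and 5.17 to 5.47 in deleted epithelial cells, and 7.03 to 7.91 in control and 6.22 to 7.24 in deleted tumours. The tumour arrays were thus higher than every epithelial array whatever their genotype. Not every member read lower in deleted tumours: Saa3, a serum amyloid gene, read 0.13 higher there. The interaction of Saa3 was 0.57 ± 0.73 (adjusted p = 0.79), or 0.95 without replicates 9 and 15. Hp, haptoglobin, gave -0.35 ± 0.36 in tumours, which did not pass (adjusted p = 0.793), and an interaction of -0.79 ± 0.62 (adjusted p = 0.654).

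Among the 55 genes that fell in tumours and had room in epithelial cells, most did not fall there by more than a small amount. The 73 genes were chosen on the tumour effect, and their median epithelial effect was -0.10, with 46 below 0 and 27 above. The 55 were chosen from these by their level in the control epithelial arrays, which also enters the epithelial effect, so their values are a description. Their median epithelial effect was -0.11, with 35 below 0 and 20 above. Of the 55, 8 were lower at an unadjusted p under 0.05, 7 fell short of the controls by more than 0.5, and 3 passed in epithelial cells (Stat3, Reg3b and Tifa). Over all 17316 tested genes the median was 0.00, with 8532 below 0 and 8784 above. Among all of them 712 were lower at an unadjusted p under 0.05, 579 fell by more than 0.5 and 4 passed. The median interaction of the 55 was -0.71, and 0 of the 55 passed in the interaction, while 36 had an unadjusted p under 0.05. These interactions hold the tumour effect by which the genes were chosen and are given as a description.

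Examples with room are Slc10a2, Otop2, Ascl2 and Avil, each a member of a gene list. Slc10a2, the ileal bile acid transporter, had a higher level in control epithelial cells (7.62, 7.23 and 7.49) than in most control tumours (5.28 to 7.72). It read 7.03, 7.02 and 7.70 in deleted epithelial cells, overlapping their controls, and 3.91 to 4.62 in deleted tumours, below all controls and within or next to the absent range. The interaction was -1.84 ± 0.42 (adjusted p = 0.323). Room was 2.92 in epithelial cells for a tumour fall of 2.03, so a fall of that size could have been read in both. Fabp6, the ileal bile acid binding protein, had an interaction of -3.11 ± 1.32 (adjusted p = 0.51), and the 12 genes of the ileum list had a median of 0.03, which turned to -0.34 without replicates 9 and 15 and to -0.13 without replicate 4.

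Otop2, a proton channel gene, gave 0.13 in epithelial cells, fell by 1.66 in tumours and had an interaction of -1.79 ± 0.36 (adjusted p = 0.21). Ascl2, a transcription factor of crypt stem cells, read 6.20, 6.25 and 6.23 in control and 6.89, 6.57 and 6.49 in deleted epithelial cells, above the controls, and 6.78 to 7.82 in control against 6.19 to 6.71 in deleted tumours, below them. The groups did not overlap in either tissue, in opposite directions, but the epithelial effect of 0.43 ± 0.22 did not pass (limma, adjusted p = 0.722). The interaction of Ascl2 was -1.25 ± 0.27 (adjusted p = 0.314). Lgr5, a crypt stem cell receptor, gave an interaction of -0.17 ± 0.46, and the 10 genes of the crypt list had a median of -0.21. Avil, an actin-binding protein gene of tuft cells, fell by 1.20 in tumours with an interaction of -1.22 ± 0.30 (adjusted p = 0.394). The 9 tuft cell genes had a median of 0.15 (-0.05 without replicates 9 and 15), and Avil was the 1 that fell. B3galt5, which also had room, fell by 1.98 in tumours and gave -0.805 ± 0.53 in epithelial cells. The interaction of B3galt5 was -1.18 ± 0.65 (adjusted p = 0.564), and ran from -1.20 to -0.56 under the other settings.

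Genes that fell in both tissues formed the other side. Reg3b, an antimicrobial lectin, read 13.11, 13.24 and 13.06 in control and 8.39, 8.06 and 8.21 in deleted epithelial cells, and 11.26 to 13.10 against 5.26 to 8.79 in tumours. It fell by 4.91 ± 0.71 in epithelial cells (adjusted p = 0.017) and by 5.84 ± 0.50 in tumours (adjusted p = 8.31e-06), and the difference was -0.93 ± 0.87 with a 95% interval of -2.76 to 0.90. Its paralog Reg3g gave -3.80 in epithelial cells (adjusted p = 0.058), fell by 4.16 in tumours and had an interaction of -0.36 ± 0.78, with an interval of -2.0 to 1.28. That of Reg3g was -0.63 without replicates 9 and 15 and -0.73 without replicate 4. Tifa, an adaptor of innate signalling, read 9.05, 8.90 and 8.83 against 6.78, 6.70 and 6.60 in epithelial cells and 8.54 to 9.27 against 7.06 to 7.91 in tumours. Its fall was 2.23 ± 0.19 in epithelial cells and 1.77 ± 0.13 in tumours, with a difference of 0.47 ± 0.23 and an interval of -0.03 to 0.96. Ptk6, a non-receptor tyrosine kinase gene, gave -1.47 in epithelial cells, which did not pass, fell by 1.41 in tumours and had an interaction of 0.06 ± 0.43. The intervals of Stat3 and Tifa lie within 1 unit of 0, whereas those of Reg3b and Reg3g reach beyond it. The epithelial call of Reg3b was lost without any 1 of the epithelial replicates 1 to 6 (adjusted p 0.000149 to 0.129 over the 18 fits with 1 array left out). The standard errors of Reg3b came from all 6 groups together, whose SDs were 0.09 and 0.17 in epithelial cells and 0.74 to 1.88 in tumours. Its epithelial standard error thus reflects the tumour spread as well.

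**Figure D3:**
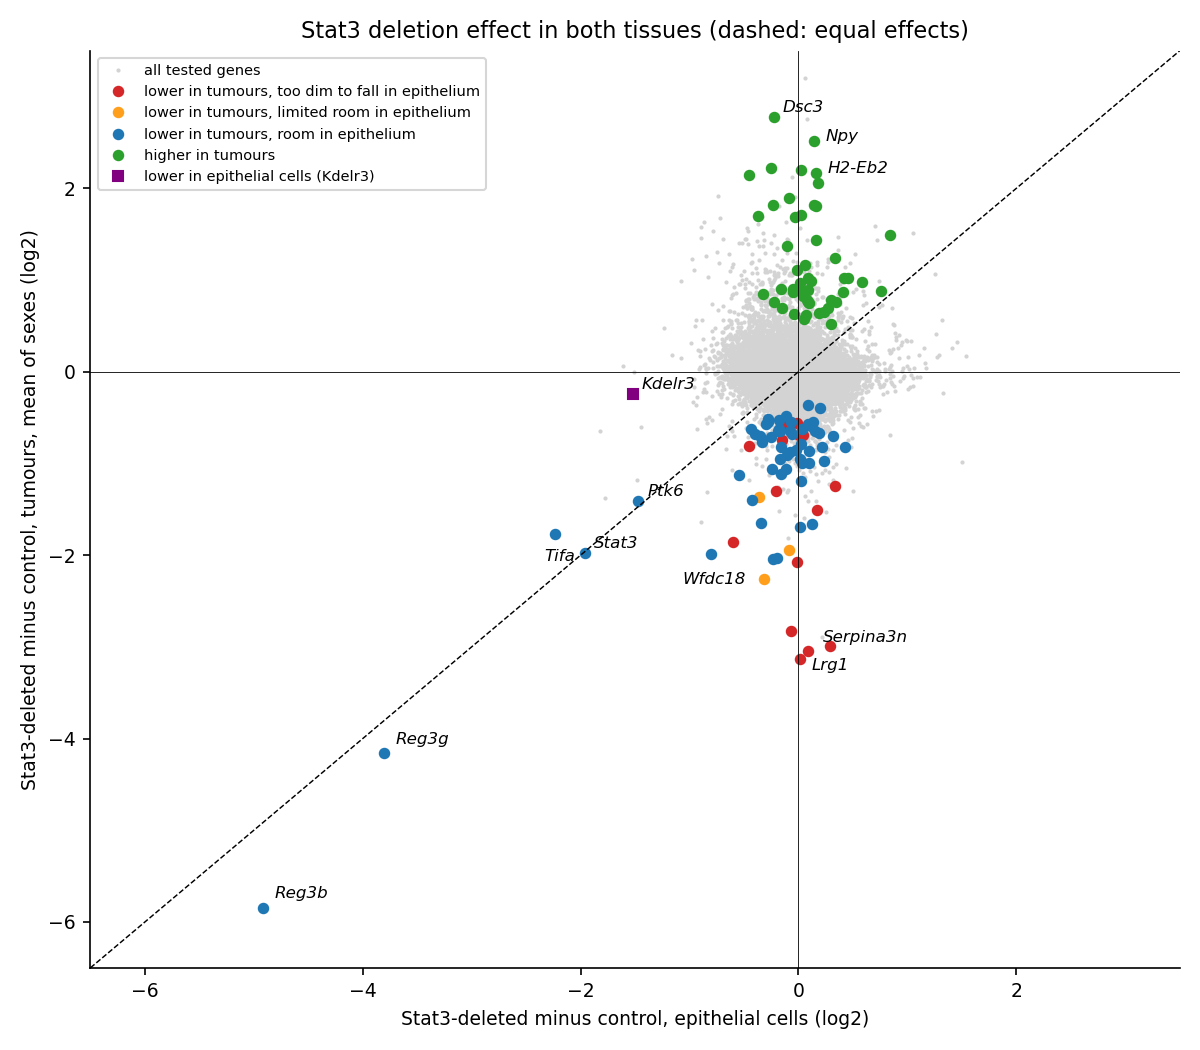
Effect of Stat3 deletion (deleted minus control, log2) in epithelial cells (horizontal) and in tumours as the mean of both sexes (vertical) for the 17316 tested genes, with the genes that passed in tumours coloured by direction and room. Genes on the dashed line have equal effects, as Stat3, Reg3g and Ptk6 nearly do, while most coloured genes lie near an epithelial effect of 0.

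Kdelr3 showed the opposite pattern, a fall in epithelial cells with room to fall in tumours. Kdelr3, one of the KDEL receptors that retrieve escaped chaperones to the endoplasmic reticulum, read 7.53, 7.05 and 7.53 in control and 5.71, 5.75 and 6.07 in deleted epithelial cells, and 6.54 to 7.68 against 6.67 to 7.36 in tumours. The epithelial groups were well apart and the tumour groups overlapped. It fell by 1.52 ± 0.24 in epithelial cells (adjusted p = 0.0381), gave -0.24 ± 0.17 in tumours and had an interaction of 1.28 ± 0.29 (adjusted p = 0.323). With 1 array left out its epithelial call held in 5 of 18 fits, those without replicate 7, 9, 14, 15 or 18 (adjusted p 0.0108 to 0.372 over the 18). The other 17 genes of the unfolded protein response did not pass in epithelial cells, and the 18 had a median of -0.22 there, 0.04 in tumours and 0.24 in the interaction.

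Cyp2j9, Tent4b and Ghr were the further genes with the smallest p among higher interactions, with lower values in deleted epithelial cells and somewhat higher ones in deleted tumours. Cyp2j9, a cytochrome P450 gene, read 6.77, 6.81 and 6.40 in control and 5.08, 5.94 and 5.26 in deleted epithelial cells, and 4.81 to 5.29 against 4.96 to 6.22 in tumours. The epithelial effect was -1.24 (adjusted p = 0.388), the tumour effect 0.47 ± 0.19 (unadjusted p = 0.0235), and the interaction of 1.71 ± 0.33 (adjusted p = 0.153) passed without replicate 18. Control tumours had 0.69 units of room for Cyp2j9 and were thus too dim to fall. Tent4b, a poly(A) polymerase gene, and Ghr, the growth hormone receptor, had interactions of 0.94 ± 0.20 (adjusted p = 0.314) and 0.88 ± 0.20 (adjusted p = 0.323). Tent4b gave -0.69 in epithelial cells and 0.25 in tumours. Ghr gave -0.64 in epithelial cells, -0.06 in male tumours and 0.54 in female tumours (unadjusted p = 0.00464), so that its interaction was 0.58 with male and 1.18 with female tumours. Whether the sexes differ for Ghr was not tested. Both had over 3 units of room in tumours, so a fall of the epithelial size could have been read there.

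The 50 genes that rose in deleted tumours had a median epithelial effect of 0.07, with 33 above 0 and 17 below. Of the 50, 2 were higher in epithelial cells at an unadjusted p under 0.05, as were 466 of all 17316 tested genes. A rise needs no room above the floor, and 11 of the 50 lay within 1 unit of it in control epithelial cells. Npy, the neuropeptide Y gene, read 6.41, 6.57 and 6.51 in control and 6.47, 6.61 and 6.85 in deleted epithelial cells, and 7.07 to 7.71 in control against 9.27 to 11.03 in deleted tumours. The tumour groups did not overlap, and the interaction was 2.37 ± 0.44 (adjusted p = 0.123), passing without replicate 18. Npy and the receptor gene Npy2r thus moved in opposite directions in tumours.

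The other large rises were spread more widely. Dsc3, a desmosomal cadherin gene, read 5.58, 9.88 and 7.57 in deleted male tumours against 4.41 to 6.41 in the 6 controls, and 4.21 to 4.97 in all epithelial arrays, with an interaction of 3.01 ± 0.95 (adjusted p = 0.474). Its rise in tumours of 2.78 was lost in 4 of 18 fits with 1 array left out, those without replicate 12, 13, 15 or 16 (adjusted p 0.0018 to 0.075 over the 18). Rfx6, a transcription factor of enteroendocrine cells, read 4.81 to 4.96 on all epithelial arrays and 4.03 to 4.96 in control tumours, near the floor, and 4.87 to 7.50 in deleted tumours, with an interaction of 1.98 ± 0.58 (adjusted p = 0.471). The 14 enteroendocrine genes had a median of 0.30, and 0.08 without replicates 9 and 15. Cym, Asb4 and Bpifb5 had interactions of 2.47, 2.17 and 1.89, with adjusted p of 0.431, 0.474 and 0.502, and the tumour rise of Bpifb5 held in 7 of 18 fits with 1 array left out, those without replicate 1, 3, 7, 10, 13, 17 or 18. The tumour rises of Dsc3 and Bpifb5 were also lost without replicates 9 and 15 together.

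The genes that passed in tumours of 1 sex were also read in the interaction of the other sex, whose tumour arrays took no part in the choice. Of the 20 that fell in male tumours (0.116%), 18 had a negative interaction in females, with a median of -1.19, and 55% of all tested genes were negative there. Of the 20 that rose in male tumours (0.116%), 15 were positive (45% of all genes), with a median of 0.45. Of the 15 that fell in female tumours (0.0866%), 13 were negative in males (56.8% of all genes), with a median of -0.82, and the 3 that rose in female tumours (0.0173%) were all positive (43.2% of all genes). The spread was estimated from all arrays together. The interactions of both sexes subtract the same epithelial effect, and the genes were chosen on a tumour effect. A shared sign thus follows where the tumour effect recurs and the epithelial effect is near 0, and is no separate test of a tissue difference.

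Interferon-induced genes had among the highest median interactions. Of 21 tested genes 20 were above 0, 10 had an unadjusted p under 0.05 and 0 passed. Their median effect was 0.02 in epithelial cells and 1.02 in tumours, with 1.36 in male and 0.59 in female tumours. The median interaction was 1.10, or 1.41 without replicates 9 and 15, which had the highest list means among the control tumours of their sex. In tumours 5 rose, namely Ifit3, Ido1, Oasl2, Oas3 and Irf7. The list mean was 8.03 to 8.41 in control and 7.90 to 8.61 in deleted epithelial cells. In male tumours it was 7.28, 6.48 and 8.16 in controls and 8.37, 9.48 and 8.54 after deletion, and in females 8.34, 8.24 and 8.79 against 9.10, 8.95 and 8.75. The groups were apart in males and touched in females, and control male tumour 8 was the lowest of all 18 arrays.

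Several of these genes read higher in control epithelial cells than in control tumours, so that the deleted tumours lay nearer the epithelial level. Ido1, which degrades tryptophan, had a mean of 10.40 in control epithelial cells, 8.22 in control tumours and 9.91 in deleted tumours. It read 10.16 to 10.62 on all epithelial arrays, 5.76 to 9.77 in control tumours and 9.36 to 10.45 in deleted ones. Its interaction was 1.72 ± 0.57 (adjusted p = 0.474). Oasl2, a gene of the oligoadenylate synthetase family, read 10.22 to 10.96 in epithelial cells, 6.93 to 9.57 in control tumours and 9.50 to 10.58 in deleted ones, with an interaction of 1.48 ± 0.52 (adjusted p = 0.487). Ifit3 read 6.62 to 8.17 in epithelial cells, 5.13 to 7.82 in control tumours and 7.65 to 9.39 in deleted ones, with an interaction of 1.67 ± 0.61 (adjusted p = 0.5). Its rise in tumours was lost without replicate 11, 13, 14 or 16. Stat2, a transcription factor of interferon signalling, rose by 0.90 in tumours, gave -0.02 in epithelial cells and had an interaction of 0.92 ± 0.34 (adjusted p = 0.502). Cxcl9, a chemokine gene induced by interferon gamma, was the 1 gene below 0, at -0.67 ± 0.78, and -0.15 without replicates 9 and 15. Macrophage and dendritic cell genes had a median interaction of -0.17 over 17 genes, and their part in the interferon values was not tested.

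**Figure D4:**
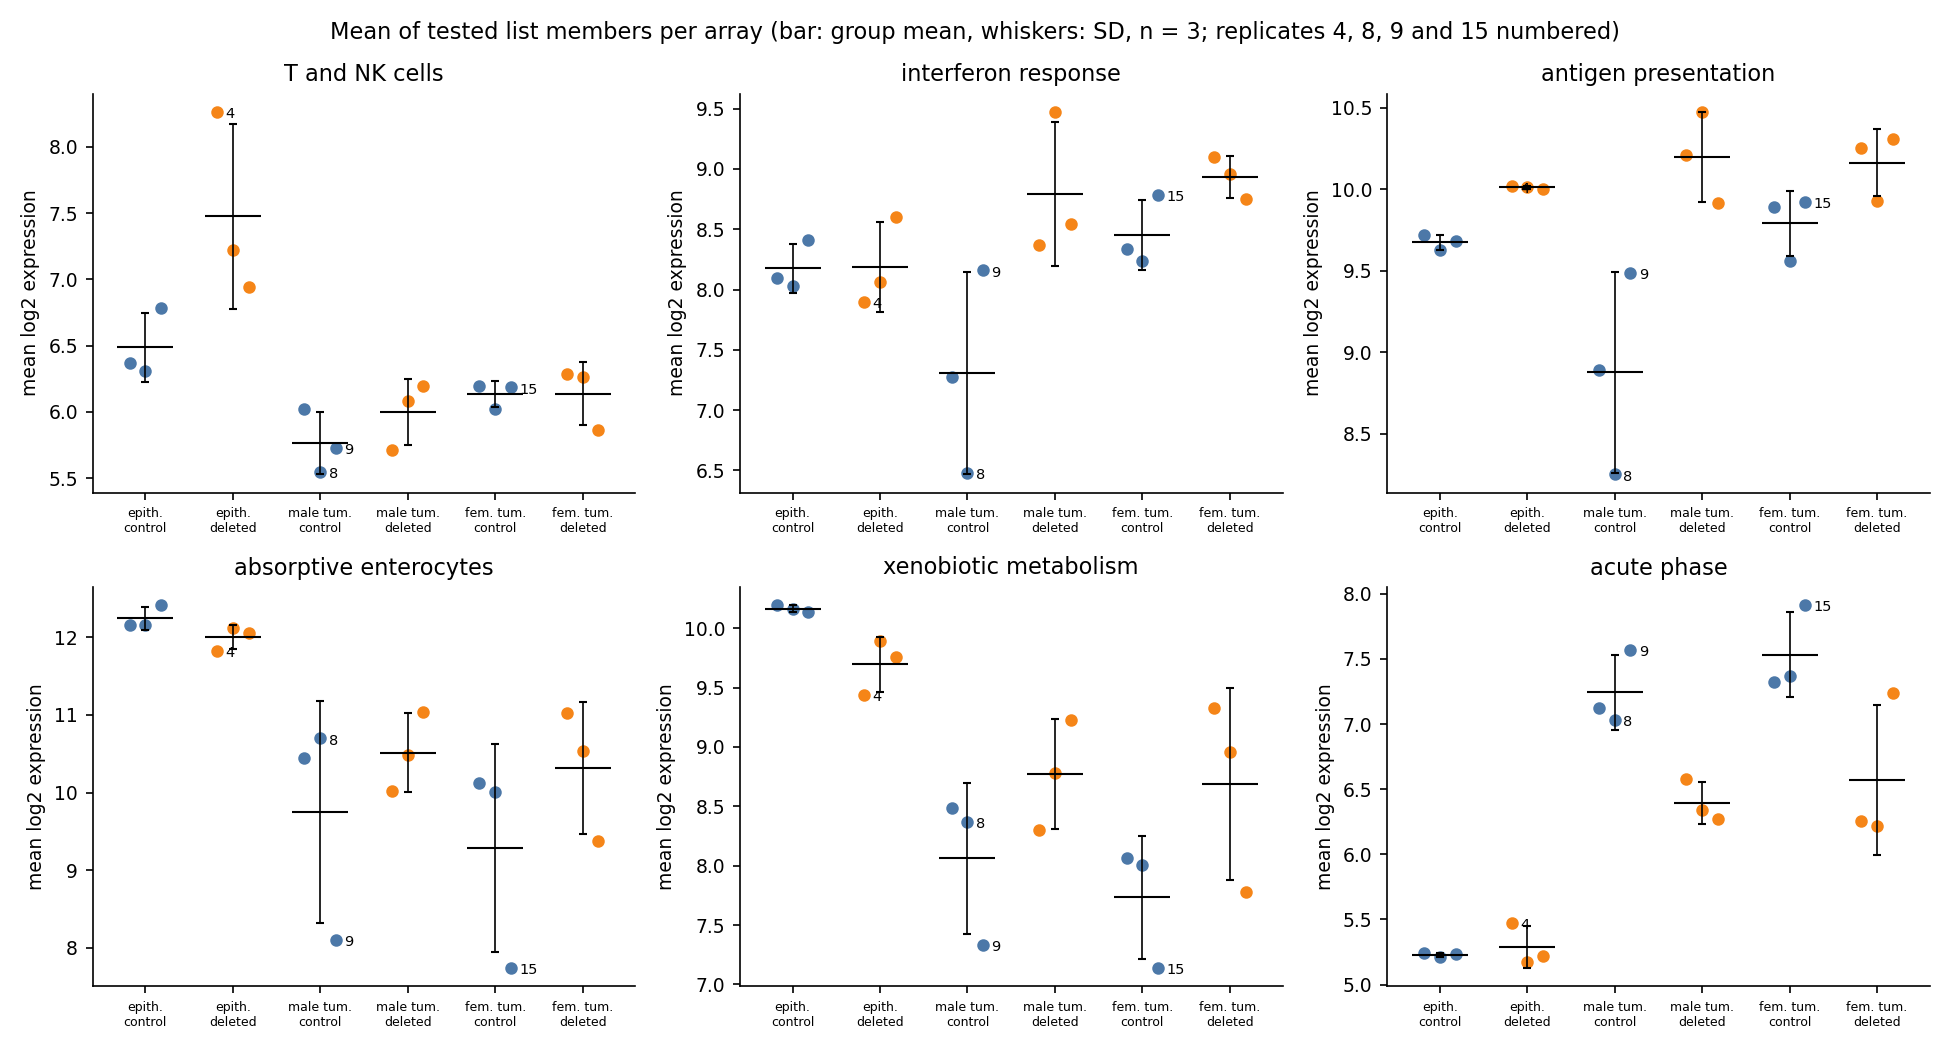
Mean log2 expression over the tested members of 6 gene lists on each of the 18 arrays by group, with the group mean and SD (n = 3; blue, control; orange, Stat3-deleted; arrays 4, 8, 9 and 15 numbered). Array 4 is highest for T and NK cell genes at 8.26, array 8 is lowest for interferon genes at 6.48, and arrays 9 and 15 are lowest for absorptive enterocyte genes at 8.10 and 7.74.

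Genes of xenobiotic metabolism had the highest median of any list, 1.20, and in them both tissues contributed. Of 22 tested genes 21 were above 0, 11 had an unadjusted p under 0.05 and 0 passed in the interaction or in either tissue. The median effect was -0.45 in epithelial cells and 0.77 in tumours, and the median interaction was 1.11 without replicate 4, 0.84 without replicates 9 and 15 and 0.66 without all 3. Cyp1a1, a cytochrome P450 induced through the aryl hydrocarbon receptor, read 7.55 to 9.0 in control and 6.88 to 7.67 in deleted epithelial cells, and 4.27 to 5.26 against 4.48 to 6.86 in tumours, with an interaction of 2.07 ± 0.60 (adjusted p = 0.471). The groups overlapped in both tissues. Ces2a, a carboxylesterase gene, read 11.49, 11.57 and 11.35 against 10.91, 10.86 and 10.56 in epithelial cells, without overlap, and 6.41 to 8.24 against 7.61 to 10.09 in tumours, with an interaction of 2.14 ± 0.64 (adjusted p = 0.474). Aldh1a1, a retinaldehyde dehydrogenase gene, gave 2.35 ± 0.81, or 1.56 without replicates 9 and 15, and Cyp2c55 2.47 ± 1.12. Control epithelial arrays were tight (list means 10.14 to 10.19) and deleted ones lower (9.44 to 9.89), while tumours ran from 7.14 to 8.49 in controls and from 7.78 to 9.33 after deletion.

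Absorptive enterocyte genes had a median nearly as high, and it was smaller without replicates 9 and 15. Those control tumours were singled out by their low values in these same genes, so the smaller median is a description and not a test. Deleted tumour 18, which was also low for them, was kept in the values without replicates 9 and 15. Their median interaction over 17 genes was 1.10, with 16 above 0 and 0 that passed, and 0.26 without replicates 9 and 15. Sucrase-isomaltase, Sis, gave 1.38 ± 1.15, and 0.13 without those arrays. Lactase, Lct, gave 2.03 ± 0.99, and 1.23 without them. Proximal small intestine genes likewise had a median of 0.66, and 0.12 without them, and the 12 colon genes -0.46, and 0.11 without them or -0.28 without replicate 4. Among fatty acid oxidation genes 12 of 12 were above 0, the median was 0.48 with and without replicates 9 and 15 and 0.33 without replicate 4, and 0 passed. Acadl, a long-chain acyl-CoA dehydrogenase gene, averaged 10.16 ± 0.14 (SD, n = 3) in control and 9.20 ± 0.34 in deleted epithelial cells, without overlap, and read 9.70 to 10.64 in all tumours, with an interaction of 0.79 ± 0.29 (adjusted p = 0.502).

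T and NK cell genes had the lowest median, -0.85, and here the difference lay in the epithelial arrays. All 21 tested genes were below 0, 12 had an unadjusted p under 0.05 and 0 passed. The median effect was 1.03 in epithelial cells and 0.06 in tumours. The list mean was 6.37, 6.31 and 6.78 in control and 8.26, 7.22 and 6.94 in deleted epithelial cells, so the groups did not overlap and replicate 4 was the highest of all arrays. Without replicate 4 the median interaction was -0.49. Nkg7, a granule protein gene of cytotoxic cells, read 6.69, 6.67 and 7.13 against 9.53, 7.79 and 7.16 in epithelial cells and 5.32 to 6.56 in all tumours, with an interaction of -1.57 ± 0.51 (adjusted p = 0.474), and -0.88 without replicate 4. Cd3d, a T cell receptor subunit gene, gave -1.20 ± 0.36 (adjusted p = 0.474), and -0.70 without it. These lymphocytes are not deleted by Villin-Cre, and in such bulk samples more cells of a type and more RNA per cell cannot be told apart. B and plasma cell genes had a median of -0.02.

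**Figure D5:**
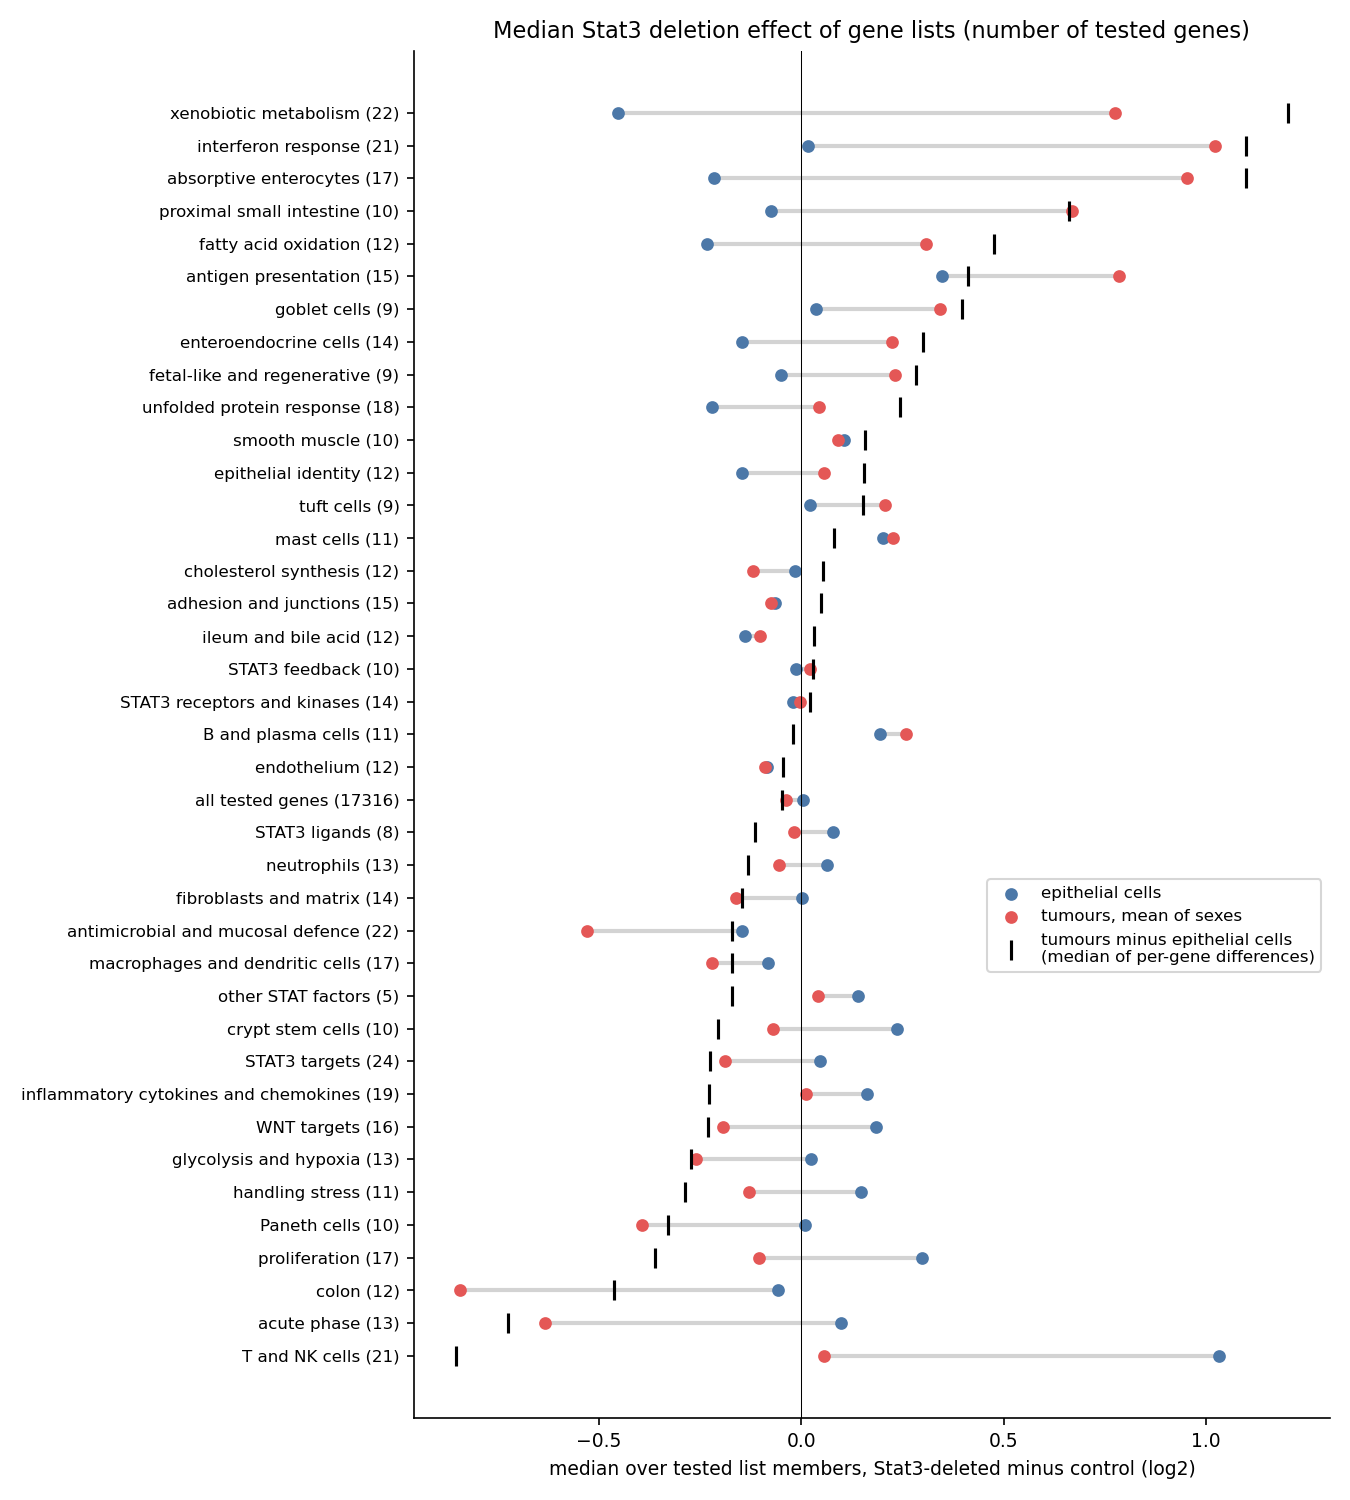
Median effect of Stat3 deletion (log2) over the tested members of 38 gene lists and over all 17316 tested genes, in epithelial cells (blue), in tumours (red) and as the interaction (black tick). Xenobiotic metabolism (1.20) and interferon response (1.10) are at the top and T and NK cells (-0.85) at the bottom, with all tested genes at -0.05.

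No gene of the ligands, receptors, kinases or feedback inhibitors of the STAT3 pathway passed in the interaction. Of 8 tested ligand genes 0 passed and the median interaction was -0.11, with Il23a at -0.83 and Il6 at 0.80 as its ends. In epithelial cells 3 of the 8 were too dim to fall, Il6 (room -0.52) and Il23a (0.95) among them. Il23a read 6.97 and 7.25 in control tumours 9 and 15 and 5.15 to 5.40 in the other 4, and gave -0.22 without them. Of 14 receptor and kinase genes 0 passed and the median was 0.02, or 0.25 without replicates 9 and 15. The highest of these were Il22ra1, the epithelial receptor of IL-22, at 0.76 ± 0.52, Jak2 at 0.75 ± 0.33 and Il10rb at 0.70 ± 0.25, and the lowest were Lepr at -0.69 and Il27ra at -0.64. In epithelial cells 3 of the 14 were too dim to fall, Lepr (room -0.35) among them. Il22ra1 gave 0.26 without replicates 9 and 15, below Il6st (0.82), Jak2 (0.65) and Il10rb (0.59), and Il27ra gave -0.34 without replicate 4. Il6st, the shared signalling chain gp130, read 7.79, 7.41 and 7.73 in control and 6.94, 7.21 and 6.78 in deleted epithelial cells. These groups did not overlap, but the epithelial effect of -0.67 ± 0.29 did not pass (limma, adjusted p = 0.722). Il6st read 8.87 to 10.45 in all tumours, with an interaction of 0.64 ± 0.35 (adjusted p = 0.564). Of 10 feedback genes 0 passed and the median was 0.03. Socs3, the main feedback inhibitor of STAT3, gave -0.29 in epithelial cells, -0.55 in tumours and -0.26 ± 0.28 in the interaction, and Socs1 gave -0.46 ± 0.25, or -0.26 without replicate 4. Stat5b, another STAT factor, gave -0.50 ± 0.20 in the interaction.

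Among 24 genes listed as STAT3 targets Lrg1 alone passed in the interaction. Of the 24, 17 were below 0 (9777 of all 17316 tested genes), with a median of -0.23, or -0.18 without replicates 9 and 15. In tumours 3 fell, Lrg1, Mmp7 and Tifa, and in epithelial cells 1, Tifa. The list was chosen with earlier results of these data known, so these counts are a description. Mmp7, a matrix metalloproteinase gene, fell by 1.65 in tumours and gave -0.34 in epithelial cells and -1.31 ± 0.59 in the interaction (adjusted p = 0.514). Myc gave 0.68 in epithelial cells, -0.43 in tumours and -1.11 ± 0.37 (adjusted p = 0.474), and Cebpd gave -0.92 ± 0.39 (adjusted p = 0.51). The survival genes Bcl2l1 and Mcl1 gave -0.17 ± 0.28 and 0.28 ± 0.19, Ccnd1 gave -0.22 ± 0.42 and Pim1 -0.18 ± 0.28. In each of these the interval spans 0. Mucosal defence genes gave interactions of either sign, and 0 passed. Lcn2, the siderophore-binding lipocalin, was 5.03 to 5.45 on all epithelial arrays, too dim to fall there (room 0.72). It read 10.02 to 11.70 in control and 7.62 to 11.10 in deleted tumours, which overlapped, and its tumour effect of -1.82 did not pass (adjusted p = 0.0638). The interaction of Lcn2 was -1.72 ± 0.74 (adjusted p = 0.51). Reg3a gave 1.51 ± 1.05 (adjusted p = 0.624), from -1.51 in epithelial cells and 0.00 in tumours, and 0.81 without replicates 9 and 15.

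Proliferation genes had a median interaction of -0.36, with 15 of 17 below 0, 0 that passed, and a median effect of 0.30 in epithelial cells and -0.10 in tumours. Over all tested genes 9777 of 17316 interactions were below 0. Rrm2, a ribonucleotide reductase subunit gene, gave -0.90 ± 0.29 (adjusted p = 0.474), and Mki67 gave 0.07 ± 0.48. WNT target genes had a median of -0.23 with 14 of 16 below 0, led by Sox4 at -1.35 ± 0.45 and Lef1 at -1.12 ± 0.44 (-0.74 without replicates 9 and 15), while Axin2 gave -0.24 ± 0.41. Of 13 glycolysis and hypoxia genes Bnip3, a mitophagy receptor gene, fell in tumours by 0.90 and had an interaction of -0.80 ± 0.28 (adjusted p = 0.494), and Hk2, a hexokinase gene, gave -0.76 ± 0.24 (adjusted p = 0.474).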

How the data were processed

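Total RNA of 18 samples, 6 groups of 3, was hybridised to 1-colour Affymetrix gene arrays. The authors deposited 1 normalised log2 value per array row and sample, made with RMA (background correction, quantile normalisation and probe summary) per the submitters' processing notes; its version is not stated, nor whether it was run on all arrays at once. The values ran from 1.33 to 14.6, and were used without further normalisation. The number of arrays limits the precision.

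Of 35556 array rows, 21789 carry 1 gene symbol, 1621 several and 12146 none in the platform annotation; 21698 of the first kind matched a current gene record and 0 symbols changed. For the 999 genes with several probe sets the one with the highest mean was used. Of 19938 named genes, the 17316 above the array's 25th percentile on at least 3 arrays were tested with limma 3.58.1 in R 4.3.3: 6 group means, empirical Bayes with an intensity trend, two-sided tests, Benjamini-Hochberg adjustment over all tested genes at 0.05. The script was tested on simulated data. Nothing in the labels ties each sample to an animal of its own, so the p-values cover only the spread among these 18 samples, part of which may be technical.

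Named are Stat3, the sex-linked yardstick, every gene past the interaction threshold and the 5 smallest p in a direction where fewer pass, the 12 largest tumour falls and 8 largest tumour rises, the epithelial genes that pass, and from each list the members with the largest interactions; clone and model symbols, 6 of the 123 tumour calls, were counted and not named. The comparison, the gene lists and the tests were chosen with earlier results of these data known. Alternatives were quantile normalisation, other filters on dim genes, array weights, separate spread by tissue, no trend, the mean of probe sets, 1 sex of tumours and leaving out arrays; leaving out replicates 4, 9 and 15 together was chosen after seeing the data.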

Additional observations from a re-analysis of the deposited data

Results flagged for a closer look

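The effect of Stat3 deletion differed between tumours and epithelial cells by the test of the difference itself for Lrg1 and H2-Eb2. For Lrg1 the difference was -3.14 on the log2 scale (limma, adjusted p = 0.000288), with all 6 deleted tumours below all 6 control tumours and no separation of the epithelial groups. Lrg1 was too dim to fall in epithelial cells, so the lack of a fall says nothing about its dependence on Stat3 there. For H2-Eb2 it was 2.01 (limma, adjusted p = 0.0402), with all 6 deleted tumours above all 6 control tumours.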

How the results depend on the processing

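The count of genes that passed in the interaction, 2 as reported, was 1038 with array weights, which ran from 0.163 for replicate 8 to 4.87 for replicate 6, 8 without replicates 9 and 15, 3 without replicates 4, 9 and 15, 3 with quantile normalisation or a separate spread by tissue, and 1 with female tumours only. The epithelial count of 4 was 1134 with array weights, and the tumour count of 123 was 1414 with array weights, 202 without replicates 9 and 15 and 205 without replicates 4, 9 and 15. The cause of the large counts with array weights was not tested. With 1 array left out the counts ranged from 1 to 10 in the interaction (10 without replicate 18), from 2 to 4 in epithelial cells (2 without any of replicates 1 to 6) and from 64 to 265 in tumours (64 without replicate 16, 72 without 11, 265 without 18). The share of tumour calls that were higher, 50 of 123, was 100 of 202 without replicates 9 and 15. The number of tumour falls too dim in epithelial cells, 15, was 42 with the array median as the floor and 33 with 2 units of room.

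Lrg1 passed in the interaction under 11 of 11 other settings (-3.45 to -2.90), and H2-Eb2 under 9 of 11, not with female tumours only (adjusted p = 0.423) nor without replicates 4, 9 and 15 (adjusted p = 0.172). The sign of the near-zero Stat3 interaction turned to 0.11 with array weights, 0.028 without replicates 9 and 15, 0.059 without replicates 4, 9 and 15 and 0.09 with female tumours only, and ranged from -0.093 to 0.053 with 1 array left out. That of Reg3g turned to 0.11 with male tumours only and ranged from -0.81 to 0.0072 with 1 array left out. No paired analysis was possible because the replicate numbers run from 1 to 18 and no number is shared between groups.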
